A study of Mus musculus with 12 samples.

Results

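The proteasome genes were followed across 12 Affymetrix arrays of mouse haematopoietic stem cells, here HSCs, from which all blood lineages are renewed. Members were the genes whose symbol is Psm followed by a letter from a to g and a number, measured by a probe set that carries that symbol alone. This gave 49 genes of the 18193 genes with such a probe set, and each gene was read from the probe set with the highest mean log2 signal. The arrays form 4 groups of 3 biological replicates: Nras GFPhigh, Nras GFP-, wild-type GFPhigh and wild-type GFP- HSCs. The Nras groups carried the NrasG12D/+ genotype, which is 1 copy of an oncogenic form of the small GTPase Nras, and the wild-type groups did not. All mice had received doxycycline in the drinking water for 6 weeks and were followed for 12 weeks after it was withdrawn. The labels call GFPhigh HSCs quiescent and GFP- HSCs cycling, and RNA came from cells sorted by flow cytometry. What drives the Nras allele and the GFP transgene, how old the mice were and whether animals were pooled is not stated in the labels. The Nras change is a point mutation, so the level of its transcript does not check the genotype labels.

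The 26S proteasome is the cell's main machine for degrading proteins tagged with ubiquitin. Its barrel-shaped 20S core is built from alpha rings, which gate the entry, and beta rings, which hold the catalytic sites. The 19S regulatory particle caps the barrel, with a base of ATPases that unfold substrates and a lid that removes ubiquitin chains. Interferon-inducible immunoproteasome subunits replace the standard catalytic ones and favour peptides for presentation on major histocompatibility complex (MHC) class I. In HSCs, low protein synthesis and protein quality control are known features of the quiescent state.

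By class, the array carried 8 alpha ring genes, 7 standard beta ring genes, 4 immunoproteasome or thymoproteasome genes, 9 base genes, 8 lid genes, 3 base assembly chaperones, 4 activators and inhibitors and 4 core assembly chaperones. The remaining 2, Psmc3ip and Psme3ip1, match the symbol rule but are named for an interaction with a subunit and are not subunits themselves. A gene was tested when its probe set lay above the median of its array on at least 3 arrays, which 48 of the 49 members and 12083 genes in all did. Psmb11, the thymus-specific beta subunit, was not tested. Its signal was 10.6, 307.1 and 11.1 in Nras GFPhigh HSCs, 4.7, 9.5 and 9.6 in Nras GFP- HSCs, 18.5, 5.1 and 14.8 in wild-type GFPhigh HSCs, and 14.5, 28.0 and 11.3 in wild-type GFP- HSCs. Psme2, which pairs with Psme1 in the 11S activator, is no member because its only probe set also carries the symbol Psme2b. That shared probe set read 933.3, 1489.8 and 969.1 in Nras GFPhigh HSCs, 60.5, 2644.3 and 1946.6 in Nras GFP- HSCs, 1249.7, 1127.7 and 1362.5 in wild-type GFPhigh HSCs, and 2040.6, 940.9 and 1886.6 in wild-type GFP- HSCs, so the 4 groups overlapped.

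Promoter sequence was available for 41 of the 49 members, as the 250 bases before each transcription start in RefSeq's GRCm38.p6 annotation. The search covered 3 motifs on both strands: TGACNNNGC, the core of the antioxidant response element read by CNC factors such as the products of Nfe2l1 and Nfe2l2; CCAAT, the box bound by the NF-Y complex; and GAAA, any 2 bases and GAAA again, a pattern of interferon-stimulated response elements. TGACNNNGC was found for 5 of the 41 members (12.2%) and for 11.5% of all 27025 genes with a window. CCAAT was found for 16 members (39.0%) against 37.5% of all genes, and the interferon pattern for 3 members (7.3%) against 3.5%. These 3 were Psmb3, Psmd4 and Psmd9. The interferon pattern was found for 0 of the 4 immunoproteasome or thymoproteasome genes. The 5 windows with TGACNNNGC are printed because they show where that element lies beside subunits described further on, with its letters in capitals. Psmb5 lies at chr14:54618004-54618072 on the minus strand, Psmb6 at chr11:70525318-70525356, Psmc6 at chr14:45329574-45329635, Psmd12 at chr11:107479278-107479319 and Psmd9 at chr5:123228129-123228189, the last 4 on the plus strand. In Psmc6 and Psmd12 the capitals read as the reverse complement of the motif. A match is a run of letters and not a shown binding site.
Psmb5: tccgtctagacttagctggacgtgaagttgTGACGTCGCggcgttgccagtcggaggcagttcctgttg
Psmb6: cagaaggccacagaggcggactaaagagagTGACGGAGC
Psmc6: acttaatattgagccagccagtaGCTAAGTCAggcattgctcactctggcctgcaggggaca
Psmd12: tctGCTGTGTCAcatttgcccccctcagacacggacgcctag
Psmd9: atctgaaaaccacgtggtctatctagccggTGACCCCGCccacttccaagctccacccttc

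Signals were MAS5 values scaled by the authors to the same trimmed mean on every array. The array medians still differed, from 44.0 on Nras GFP- replicate 1 to 129.6 on Nras GFPhigh replicate 2. The spread of the arrays bears on every result. Array weights, which fall when an array departs from the fitted group means, ran from 0.308 to 2.46, and 4 arrays were under 0.6: Nras GFPhigh replicates 1 and 2, Nras GFP- replicate 1 and wild-type GFPhigh replicate 2. Replicate 3 of each group differed from replicates 1 and 2 in the sex-linked genes Xist and Eif2s3y, so replicate number and the level of these genes run together. Of 11 listed HSC markers, 9 were on the array and all 9 were tested. In no group did an HSC marker lie below the array median on all 3 arrays. Their summed signal ran from 27819 to 40159 over the 12 arrays. The summed signal of 12 granulocyte markers was 6037 to 59185 in Nras GFPhigh HSCs and 4572 to 5591 in Nras GFP- HSCs. It was 1032 to 13190 in wild-type GFPhigh HSCs and 2565 to 13391 in wild-type GFP- HSCs. Below the array median on all 3 arrays were Ltf, Lcn2 and Mmp8 in Nras GFP- HSCs. In wild-type mice these were Mmp8 and Elane in GFPhigh HSCs, and Mmp9 and Elane in GFP- HSCs. No granulocyte marker was so in Nras GFPhigh HSCs. The sum of 8 endothelial and stromal markers was 2849 to 5411 in Nras GFPhigh HSCs and 469 to 4411 in Nras GFP- HSCs. It was 694 to 1934 in wild-type GFPhigh HSCs and 2041 to 2805 in wild-type GFP- HSCs. The sums of the 2 GFPhigh groups thus did not overlap. By gene, these groups did not overlap for Cxcl12 and Pecam1, higher with Nras, against 5.12% of all tested genes. They overlapped for Kdr, Cdh5, Col1a1, Col1a2, Lepr and Pdgfrb. Pdgfrb read 5.3, 108.9 and 838.7 with Nras, against 541.4, 149.0 and 415.3 in wild-type mice. The GAPDH control, whose 3' over 5' signal ratio reflects RNA quality, gave a ratio of 7.28, 2.83 and 5.70 on the Nras GFPhigh arrays and 2.57 to 4.48 on the other 9. Whether cells of these types were present was not tested. Their part in the results below, and that of RNA quality, was not tested either. In bulk RNA fewer cells of a type and less RNA per cell cannot be told apart.

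No proteasome gene passed an adjusted p of 0.05 in any of the 7 comparisons made. These were GFPhigh over GFP- HSCs in each genotype, Nras over wild-type HSCs in each population, the difference between the 2 genotypes in the GFPhigh over GFP- change, and both contrasts averaged. One limma fit covered all 12 arrays, with Benjamini-Hochberg adjustment over 12083 genes. The smallest adjusted p of any member was 0.386, in GFPhigh over GFP- HSCs with Nras. The test was sparse for all genes too. It called 0% of the tested genes in 6 comparisons and 0.00828% in the averaged Nras over wild-type comparison, which is a single gene, Gem, a small GTPase (log2 fold change 2.94 ± 0.38 (SE), adjusted p = 0.036 in limma), named here after its value was seen.

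**Figure D1:**
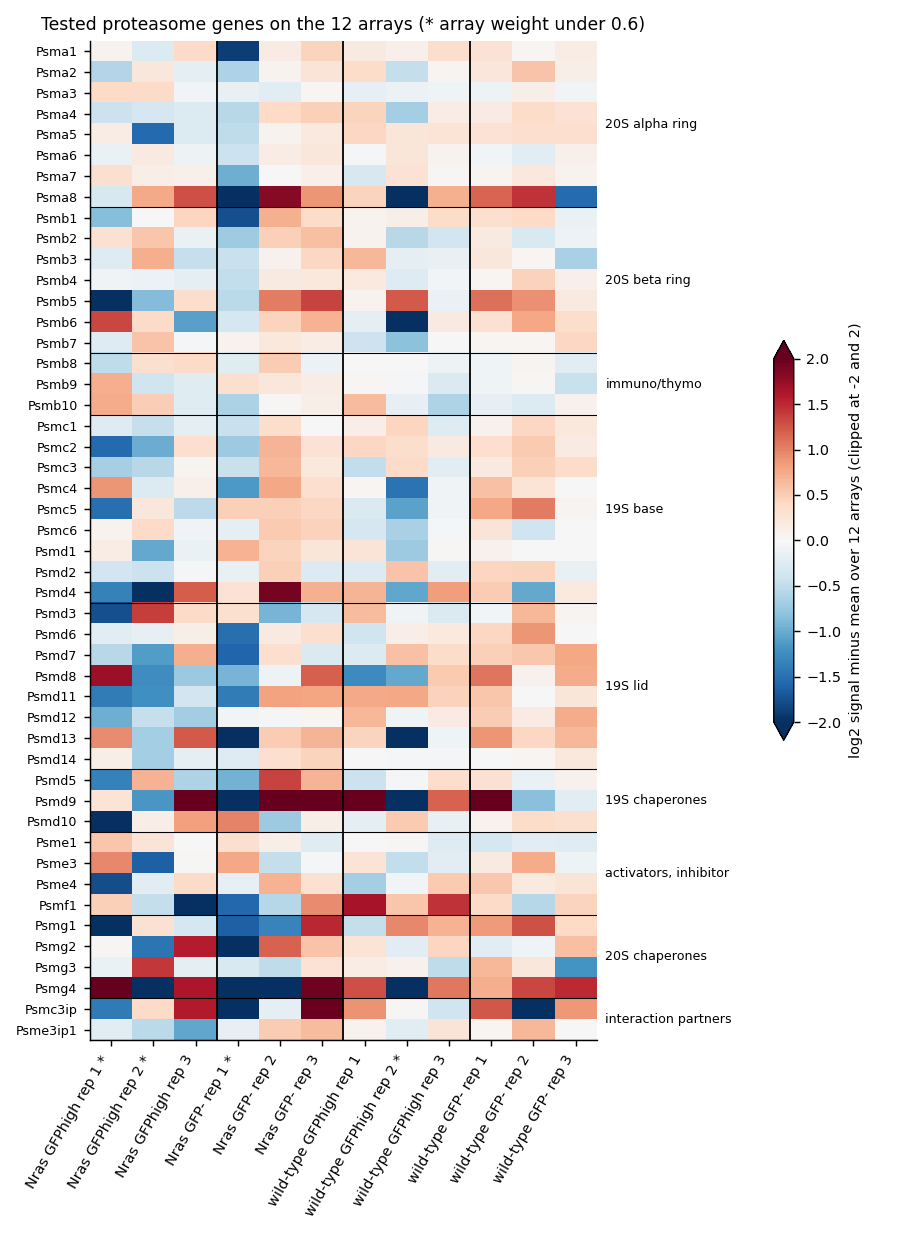
Log2 signal of each of the 48 tested proteasome genes minus its own mean over the 12 arrays, by class (rows) and array (columns, 3 per group), on a colour scale clipped at -2 and 2; asterisks mark the 4 arrays with a weight under 0.6. Nras GFP- replicate 1 was the lowest array for 14 of the 48 genes and Nras GFPhigh replicate 1 for 12.

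The proteasome genes were steadier between replicates than most genes. Their within-group SD of log2 signal had a median of 0.60, against 1.04 over all tested genes. Part of this goes with brightness: 24 members in the middle range of the members' own signal had a median SD of 0.58, against 0.72 for the other tested genes in that range of signal. An SD under 0.5 was reached by 21 of 48 members (43.8%) and by 15.2% of all tested genes. In that middle range of signal it was reached by 41.7% of the 24 members and 22.1% of the other tested genes. The steadiest was Psma3, an alpha ring subunit, with an SD of 0.16 and a 1.52-fold range between its lowest array (4949.1) and its highest (7542.6). Next came Psme1 at 0.22, Psma6 at 0.23, the beta ring gene Psmb4 at 0.26, Psmd12 at 0.27 and Psmd14 at 0.28. By class, all 3 tested immunoproteasome genes and 6 of 8 alpha ring genes had an SD under 0.5, but only 2 of 8 lid genes and none of the 3 base and 4 core assembly chaperones did. The widest were Psmd9, a base chaperone (SD 3.73), Psmg4, a core assembly chaperone (2.39), and Psma8, the testis-specific alpha subunit (2.08). Psmd9 ran from 0.7 to 640.7, so its comparisons carry little information.

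As a set, the members also varied together from array to array, but weakly and not in every class. Across 1128 pairs of members the median Pearson r over 12 arrays was 0.20, against 0.013 over all pairs of tested genes and 0.026 among other genes in the same range of signal. Within classes it ran from 0.35 in the standard beta ring to -0.08 among the immunoproteasome genes and -0.24 among the activators and inhibitor. An r over 0.5 was reached by 18.8% of member pairs and 9.2% of all pairs. These pairs share the same arrays and scaling, so the values are a description. The median deviation of the 48 members from their own means was -0.22, -0.25 and -0.05 on the Nras GFPhigh arrays, -0.50, 0.33 and 0.34 on the Nras GFP- arrays, 0.07, -0.06 and 0.02 on the wild-type GFPhigh arrays, and 0.29, 0.22 and 0.11 on the wild-type GFP- arrays. All 3 lowest values come from arrays with a weight under 0.6. Leaving Nras GFP- replicate 1 aside, all 5 other GFP- arrays lay above all 6 GFPhigh arrays, in both genotypes.

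**Figure D2:**
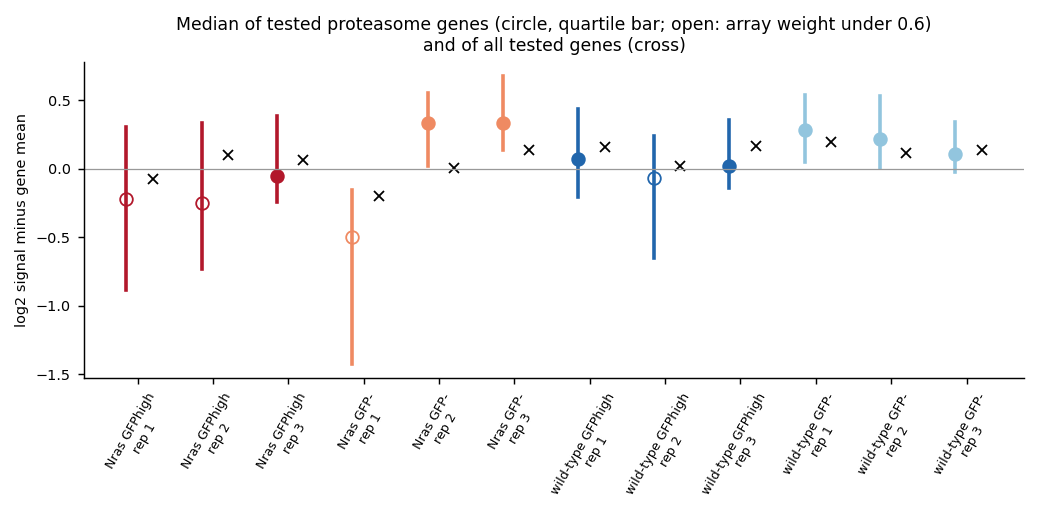
Median log2 deviation of the 48 tested proteasome genes from their means over the 12 arrays (circles, with bars from the lower to the upper quartile; open circles mark arrays with a weight under 0.6) and of all 12083 tested genes (crosses), for the 4 groups from left to right. Nras GFP- replicate 1 stands lowest at -0.50, and the other 5 GFP- arrays stand between 0.11 and 0.34.

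For GFPhigh over GFP- HSCs averaged over both genotypes, which asks whether quiescent and cycling HSCs differ, 32 of 48 members had a lower value in GFPhigh HSCs, and the median log2 fold change was -0.21. Over all tested genes the median was 0.02. Other tested genes in the members' middle range of signal had a median of -0.11, so the members' median was 0.23 below that of all tested genes and the genes of like brightness lay 0.125 below it. The members' median was between -0.38 and -0.12 under all alternatives run, and -0.19 without the 4 arrays of low weight. Median centring of the arrays moves the median of all tested genes in this comparison to -0.15 and that of the members to -0.38. An unadjusted p under 0.05 was reached by 1 member, against a background of 8.87% of all tested genes. No member had its 6 GFPhigh arrays all above or all below its 6 GFP- arrays, as was so for 0.232% of all tested genes above and 0.339% below. Within wild-type HSCs the members' median was -0.19, against -0.03 for all tested genes, and 35 of 48 were lower in GFPhigh HSCs. Genes of like brightness had a median of -0.03 there. Within Nras HSCs the members' median was -0.10, against 0.08 for all tested genes and -0.18 for genes of like brightness, so it lay below all tested genes but above genes of like brightness. There 28 of 48 members were lower (21 to 42 over the alternatives), and the median was -0.38 without Nras GFP- replicate 1 and 0.07 without Nras GFP- replicate 3. For the difference between genotypes in this change, the members' median was 0.11, the same as over all tested genes and against -0.14 for genes of like brightness. It ran from -0.21 to 0.21 with 1 array left out, the lowest without Nras GFP- replicate 1, and was -0.53 with median centring, so its sign was not stable. For this difference 0 members reached an unadjusted p under 0.05 against a background of 4.68%.

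In the 19S base, all 9 base genes had a lower value in GFPhigh HSCs, with a median of -0.42. Over the alternatives, 6 to 9 of the 9 were lower and the median was between -0.59 and -0.21, and 6 were lower with the mean over all probe sets of a gene. Without the 4 arrays of low weight it was 8 of 9 and -0.34. None of the 9 passed the test. Their log2 fold changes ran from -1.08 to -0.21, the smallest sizes being those of Psmc1 (-0.21 ± 0.18) and Psmc6 (-0.21 ± 0.26), both ATPases. The lid had 7 of 8 lower (median -0.19), the standard beta ring 5 of 7 (-0.17), the alpha ring 3 of 8 (0.10) and the immunoproteasome genes 1 of 3 (0.03; 2 of 3 and -0.13 with median centring). The 3 base assembly chaperones had a median of -0.41, which was 0.36 without the 4 arrays of low weight. Whether the base differed from the other classes was not tested.

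Psmc5, an ATPase of the base, had the smallest p of this comparison. Its signal was 537.5, 1802.3 and 1072.0 in Nras GFPhigh HSCs, against 2138.7, 2147.0 and 2049.1 in Nras GFP- HSCs. In wild-type mice it was 1259.3, 731.4 and 1462.8 in GFPhigh HSCs, against 2615.2, 3141.7 and 1599.6 in GFP- HSCs. The groups did not overlap within either genotype, as was so for 6.21% of all tested genes in the lower direction in Nras HSCs and 5.81% in wild-type HSCs. Averaged, the log2 fold change was -1.08 ± 0.36 (SE, 95% interval -1.86 to -0.29, limma adjusted p = 0.468). It stayed between -1.35 and -0.85 under all alternatives run. Psmd1, the large scaffold subunit of the base, followed. It read 3805.2, 1688.8 and 3124.6 in Nras GFPhigh HSCs, against 5575.4, 4704.2 and 4062.7 in Nras GFP- HSCs, without overlap. In wild-type mice it read 4123.0, 2067.1 and 3485.2 in GFPhigh HSCs, against 3636.0, 3446.8 and 3418.0 in GFP- HSCs, with overlap. Its averaged log2 fold change was -0.49 ± 0.24 (limma adjusted p = 0.594), and it was -0.18 without the 4 arrays of low weight. Psmc4, another base ATPase, had -0.26 ± 0.39, and Psmd14, the lid enzyme that cuts ubiquitin chains off substrates, had -0.25 ± 0.18 (limma adjusted p = 0.875 for Psmc4 and 0.712 for Psmd14). Psmc4 had -0.02 without wild-type GFPhigh replicate 2, and Psmd14 had -0.15 without Nras GFPhigh replicate 2. Psme3ip1, one of the 2 interaction partners, had -0.56 ± 0.29 (limma adjusted p = 0.611).

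Within single genotypes the same ranking rule named few further genes. In wild-type HSCs the smallest p belonged to Psmb7, Psmc5, Psmb6, Psmc4 and Psmd8, a lid gene, all lower in GFPhigh HSCs, and no member reached an unadjusted p under 0.05 against a background of 2.2%. The wild-type groups did not overlap for Psmb6, Psmb7 and Psmc5, all lower in GFPhigh HSCs, 3 of 48 against 5.81% of all tested genes, which is close to the background. They did not overlap for Psmf1 in the higher direction, against 5.3%. Psmb6 read 986.3, 154.5 and 1270.3 in wild-type GFPhigh HSCs, against 1377.5, 1904.4 and 1420.4 in wild-type GFP- HSCs, with 1 GFPhigh array far below the others. In Nras HSCs, Psmd1 (-0.80 ± 0.34, limma adjusted p = 0.386) and Psme3ip1 (-0.93 ± 0.41, limma adjusted p = 0.401) did, against a background of 12.2%, followed by Psmb5, Psmc5 and Psmd11. The Nras groups did not overlap for Psmc5, Psmd1, Psmd12 and Psme3ip1, all lower in GFPhigh HSCs, 4 of 48 against 6.21% of all tested genes, and for no member in the higher direction, against 6.7%. Psme3ip1 read 1443.7, 1167.1 and 825.2 in Nras GFPhigh HSCs, against 1523.2, 2420.5 and 2629.1 in Nras GFP- HSCs. For the difference between genotypes the smallest p belonged to Psmd11, Psma3, Psmd13, Psmd4 and Psma7, with adjusted p of 0.956 each in limma.

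In the averaged comparisons the 8 alpha ring genes ran from -0.38 to 0.27 for GFPhigh over GFP- HSCs and from -0.63 to 0.13 for Nras over wild-type HSCs. Within 1 genotype or population the range was wider. The noisy Psma8 had 1.14 ± 1.45 for GFPhigh over GFP- HSCs in Nras mice and -0.72 ± 1.45 in wild-type mice, and Psma5 had -0.86 ± 0.37 for Nras over wild-type GFPhigh HSCs, or 0.12 with the mean over its probe sets. Psma3 had 0.12 ± 0.12 and 0.13 ± 0.12 in these comparisons, and Psma6 had 0.08 ± 0.15 and -0.03 ± 0.15. Psma3 was the 1 member whose signal was higher in Nras than in wild-type GFPhigh HSCs without overlap, against 5.12% of all tested genes. It read 7542.6, 7481.3 and 5505.9 in Nras GFPhigh HSCs, against 5100.6, 5247.6 and 5415.6 in wild-type GFPhigh HSCs. Its lowest Nras array lay close above the highest wild-type one. A second, dimmer probe set of Psma3, above the array median on 7 arrays, had -2.55 there, against 0.37 for the one used. Averaged over both populations it had -1.71, against 0.13, so the 2 probe sets disagree in sign. The precision of the members as a whole was better than that of most genes. For GFPhigh over GFP- HSCs, 17 of 48 members (35.4%) had a 95% interval within a 2-fold change either way, against 15.1% of all tested genes, and for Nras over wild-type HSCs 22 of 48 (45.8%) did, against 16.3%. The members are brighter than most genes, with a median of mean log2 signal of 10.9 against 8.7 over all tested genes. These shares were not set against genes of like brightness.

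**Figure D3:**
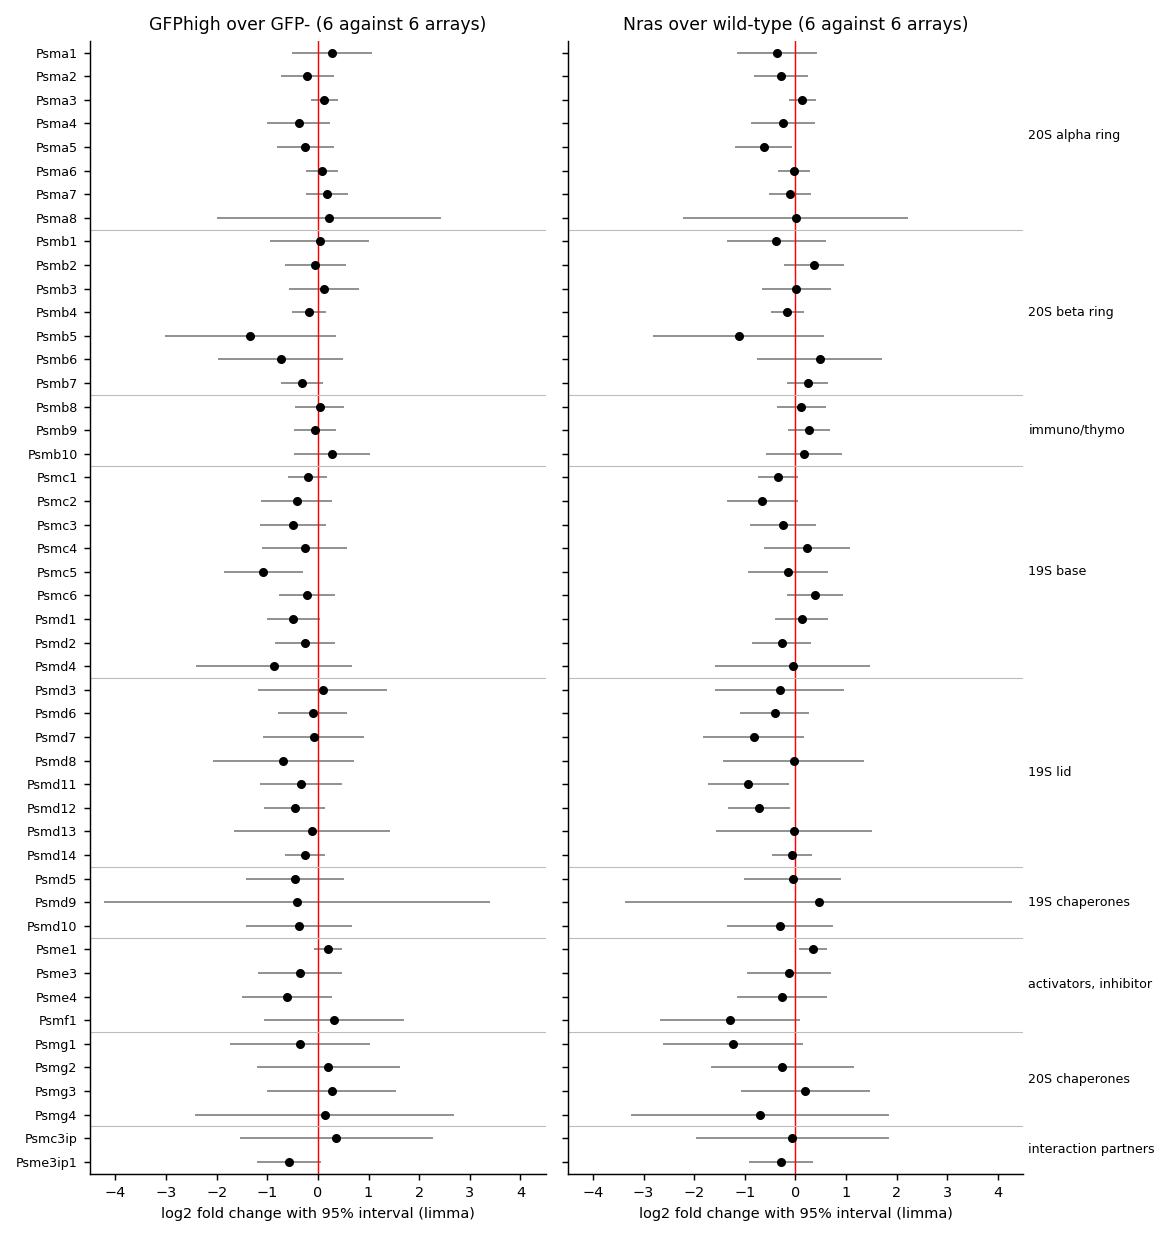
Log2 fold change of each of the 48 tested proteasome genes with its 95% interval from limma, by class, for GFPhigh over GFP- HSCs (left) and Nras over wild-type HSCs (right), 6 against 6 arrays each. All 9 base genes lie left of 0 on the left and all 8 lid genes lie left of 0 on the right, and no gene passed an adjusted p of 0.05.

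The catalytic subunits did not pass the test in either averaged comparison. Psmb5, the standard subunit with chymotrypsin-like activity, read 13.2, 181.5 and 422.7 in Nras GFPhigh HSCs, 227.8, 677.5 and 844.4 in Nras GFP- HSCs, 348.4, 778.9 and 302.7 in wild-type GFPhigh HSCs, and 714.7, 627.4 and 375.3 in wild-type GFP- HSCs. The lowest value, and so the width of the Nras GFPhigh group, comes from replicate 1. Its log2 fold change was -1.34 ± 0.78 for GFPhigh over GFP- HSCs and -1.12 ± 0.78 for Nras over wild-type HSCs (limma adjusted p = 0.655 and 0.748). The first was -0.61 without Nras GFPhigh replicate 1, and the second was 0.42 without the 4 arrays of low weight. Psmb6, the caspase-like subunit, had -0.74 ± 0.57 and 0.48 ± 0.57 for the same pair of comparisons. The first was -0.26 without wild-type GFPhigh replicate 2, and the second was -0.49 without the 4 arrays. Psmb7, the trypsin-like subunit, had -0.31 ± 0.19 and 0.24 ± 0.19. In wild-type mice, Psmb7 read 3339.7, 2511.5 and 4439.4 in GFPhigh HSCs, against 4560.4, 4549.9 and 5905.4 in GFP- HSCs, without overlap.

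The immunoproteasome subunits were steady, with a median within-group SD of 0.34 over the 3 tested genes. Psmb8, the immunoproteasome counterpart of Psmb5, read 2124.3, 3774.8 and 3969.5 in Nras GFPhigh HSCs, 2563.5, 4301.2 and 2793.4 in Nras GFP- HSCs, 3039.2, 3049.7 and 2822.3 in wild-type GFPhigh HSCs, and 2844.5, 3141.3 and 2621.6 in wild-type GFP- HSCs. Its log2 fold change was 0.03 ± 0.22 for GFPhigh over GFP- HSCs (95% interval -0.45 to 0.52; -0.13 with median centring) and 0.11 ± 0.22 for Nras over wild-type HSCs (-0.37 to 0.59). Psmb9, the counterpart of Psmb6, had -0.06 ± 0.19 (-0.48 to 0.35) and 0.26 ± 0.19 (-0.15 to 0.68). Psmb10, the counterpart of Psmb7, had 0.28 ± 0.35 (-0.47 to 1.03) and 0.17 ± 0.35 (-0.58 to 0.92). So changes of more than 2-fold lie outside the intervals of Psmb8 and Psmb9 in both comparisons, while for Psmb10 a rise of 2-fold in GFPhigh HSCs remains inside.

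**Figure D4:**
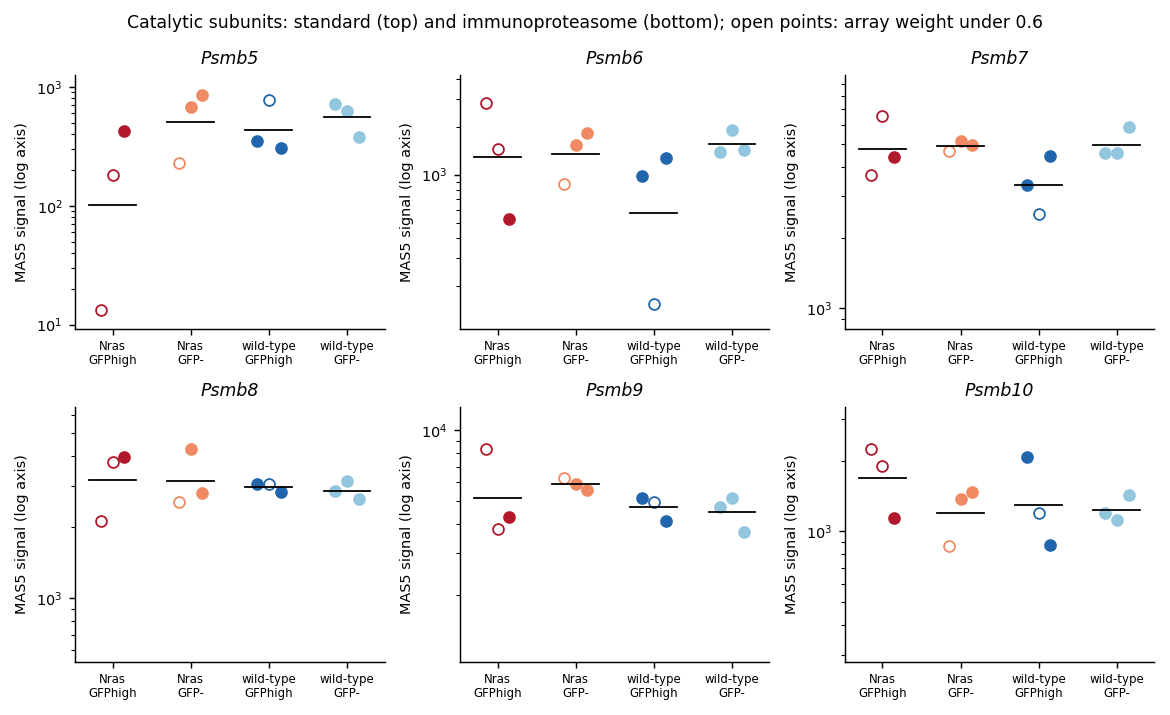
MAS5 signal on a log axis of the standard catalytic subunits Psmb5, Psmb6 and Psmb7 (top) and the immunoproteasome subunits Psmb8, Psmb9 and Psmb10 (bottom) on each array, by group; lines are the means of the log2 signals and open points are arrays with a weight under 0.6. The widest group is Psmb5 in Nras GFPhigh HSCs, from 13.2 to 422.7, and the Psmb8 groups overlap throughout.

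Nras over wild-type HSCs averaged over both populations asks what the oncogenic allele does in HSCs. The 48 members had a median log2 fold change of -0.14, close to the -0.15 over all tested genes, and 33 of 48 were lower. With median centring both medians turned positive, 0.15 for the members and 0.13 for all tested genes. Unadjusted p under 0.05 was reached by 4 members, against a background of 7.78% of tested genes. Of these, Psme1 was higher, against 2.66% in that direction, and Psma5, Psmd11 and Psmd12 were lower, against 5.12%. Medians were -0.20 in GFP- HSCs (36 of 48 lower; -0.17 over all tested genes; 0 members against 4.39%) and -0.11 in GFPhigh HSCs (30 of 48 lower; -0.09 over all tested genes; 5 members against 8.29%). Genes of like brightness had medians of -0.08 in GFP- HSCs and -0.22 in GFPhigh HSCs. The 5 members were all lower, against 5.12% of all tested genes in that direction. Both medians had the other sign without the 4 arrays of low weight, 0.15 in GFP- HSCs and 0.05 in GFPhigh HSCs. The averaged median was 0.06 without them. The lid had 8 of 8 genes lower with a median of -0.36. It had 4 of 8 and -0.10 without those arrays, and 5 of 8 and -0.07 with median centring. The 4 core assembly chaperones had a median of -0.48, but 3 of them had a within-group SD over 1. Their median deviation on the Nras GFP- arrays was -2.15, -0.92 and 1.03, the lowest on an array of low weight. The 3 immunoproteasome genes were all higher, with a median of 0.17, but Psmb10 had -0.02 without the 4 arrays of low weight. None of these genes passed the test.

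Psmd11, a scaffold subunit of the lid, had the smallest p of any member in Nras over wild-type GFPhigh HSCs. It read 985.9, 1119.9 and 2009.7 in Nras GFPhigh HSCs, against 4432.2, 4474.4 and 3599.9 in wild-type GFPhigh HSCs, without overlap, as for 7.37% of all tested genes in the lower direction. In GFP- HSCs it read 993.0, 4573.2 and 4512.7 with Nras, against 3828.9, 2610.0 and 3101.7 in wild-type mice, with overlap. The log2 fold change in GFPhigh HSCs was -1.67 ± 0.52 (SE, limma adjusted p = 0.477). The 7 probe sets of Psmd11 above the array median ran from -2.16 to 0.74 in that comparison, so they disagree in sign, and the value was -0.43 with the mean over the probe sets. Averaged over both populations, Psmd11 had -0.93 ± 0.37, and 0.02 where probe sets that match several transcripts were left out.

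Psmd12, the neighbouring lid scaffold, read 798.0, 1137.4 and 971.6 in Nras GFPhigh HSCs, against 2473.1, 1478.7 and 1754.7 in wild-type GFPhigh HSCs. In GFP- HSCs it read 1509.9, 1528.6 and 1606.0 with Nras, against 2237.6, 1761.0 and 2624.7 in wild-type mice. Psmd12 was thus lower with Nras in both populations without overlap. Of all tested genes, 7.37% were so in GFPhigh HSCs and 6.72% in GFP- HSCs, and the share in both was not computed. The averaged log2 fold change was -0.72 ± 0.28 (limma adjusted p = 0.605), and it lay between -0.81 and -0.44 under all alternatives run. Psma5, an alpha ring subunit, was lower on all 6 Nras arrays than on any wild-type array, as for 0.215% of all tested genes in that direction. It read 4166.4, 1278.1 and 3100.4 in Nras GFPhigh HSCs and 2641.9, 3939.6 and 4300.3 in Nras GFP- HSCs, against 4964.5, 4411.4 and 4509.1 in wild-type GFPhigh HSCs and 4573.6, 4745.1 and 4725.1 in wild-type GFP- HSCs. The averaged log2 fold change was -0.63 ± 0.26 (limma adjusted p = 0.609). A second probe set of Psma5, also above the array median on all 12 arrays, had -0.35 averaged. In GFPhigh HSCs it had -0.75, against -0.86 for the one used. In GFP- HSCs it had 0.05, against -0.40 for the one used, so there the 2 probe sets disagree in sign.

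Among regulators of the core, Psme1 and Psmf1 had opposite signs for Nras over wild-type HSCs. In that averaged comparison the activator genes Psme3 (-0.13) and Psme4 (-0.27) were lower with Nras, as was Psmf1 (-1.29 ± 0.64). For GFPhigh over GFP- HSCs averaged over both genotypes, Psme1 had 0.20 ± 0.13 and Psmf1 had 0.32 ± 0.64. Psme1, a subunit of the 11S activator that opens the core, read 10753.7, 8729.2 and 7322.1 in Nras GFPhigh HSCs and 9089.6, 7871.7 and 6192.7 in Nras GFP- HSCs. In wild-type mice it read 7333.7, 7448.5 and 6116.8 in GFPhigh HSCs and 5705.9, 6332.6 and 6178.6 in GFP- HSCs. Within each population the Nras and wild-type arrays overlapped, by a narrow margin. The averaged Nras over wild-type log2 fold change was 0.34 ± 0.13 (95% interval 0.06 to 0.61, limma adjusted p = 0.597), and it was 0.10 with quantile normalization. Psmf1, the PI31 protein that inhibits the core in vitro, read 606.5, 313.0 and 67.9 in Nras GFPhigh HSCs, against 1358.5, 637.6 and 1184.5 in wild-type GFPhigh HSCs. In GFP- HSCs it read 146.1, 292.7 and 836.9 with Nras, against 568.4, 292.0 and 589.7 in wild-type mice. In GFPhigh HSCs the groups did not overlap and the log2 fold change was -2.10 ± 0.90 (limma adjusted p = 0.586), and its 4 probe sets above the array median ran from -2.41 to -0.69. It was -4.22 without the 4 arrays of low weight and -1.10 with replicates 1 and 2 alone. Psmc2, a base ATPase, had -1.05 ± 0.46 in that comparison (limma adjusted p = 0.588) and 0.04 without the 4 arrays of low weight. Psmg1, a chaperone that pairs alpha subunits during assembly, had an averaged -1.23 ± 0.64 (limma adjusted p = 0.668), and -0.60 without the 4 arrays of low weight.

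In GFP- HSCs the smallest p for Nras over wild-type belonged to Psme1, Psmd6, Psmd7, Psma7 and Psmg4, with adjusted p of 0.983 each in limma. The groups did not overlap for Psmb9 and Psmd1, which were higher with Nras, against 4.07% of all tested genes, and for Psma5, Psmd7 and Psmd12, which were lower, against 6.72%. Psmd1 read 5575.4, 4704.2 and 4062.7 in Nras GFP- HSCs, against 3636.0, 3446.8 and 3418.0 in wild-type GFP- HSCs. Psmd7, a lid subunit that pairs with Psmd14, read 290.3, 1096.2 and 706.4 in Nras GFP- HSCs, against 1213.8, 1263.9 and 1481.1 in wild-type GFP- HSCs. The 3 probe sets of Psmd7 above the array median ran from -1.11, the one used, to 0.70 in that comparison. They thus disagree in sign, and the log2 fold change was -0.10 with the mean over the probe sets. The comparisons share control samples, since each group enters both a GFPhigh over GFP- and a Nras over wild-type contrast.

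**Figure D5:**
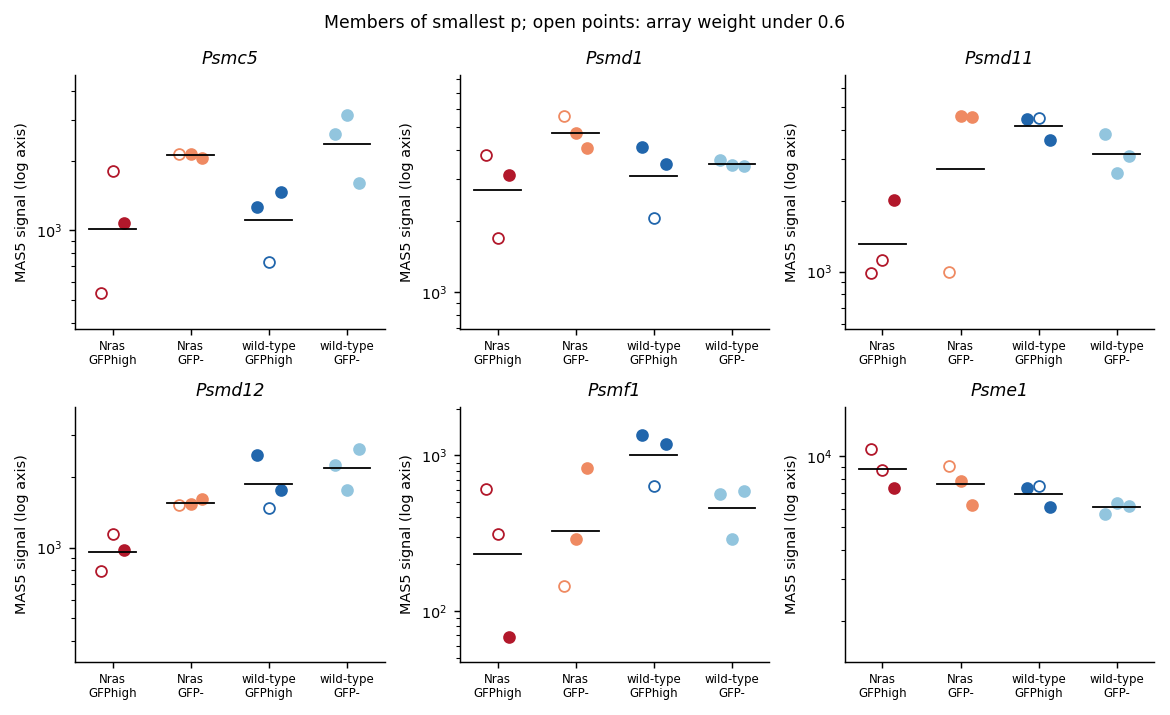
MAS5 signal on a log axis of Psmc5, Psmd1, Psmd11, Psmd12, Psmf1 and Psme1 on each array, by group; lines are the means of the log2 signals and open points are arrays with a weight under 0.6. Psmc5 is lower in GFPhigh than in GFP- HSCs of each genotype without overlap, and Psmd12 is lower in Nras than in wild-type HSCs of each population without overlap. Of all tested genes, 6.21% (Nras) and 5.81% (wild-type) did as Psmc5 within 1 genotype. Within 1 population, 7.37% (GFPhigh) and 6.72% (GFP-) did as Psmd12.

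Genes that work with the proteasome gave no call either. Of 13 tested partners outside the symbol rule, such as the assembly factor Pomp and the deubiquitinase Usp14, 0 passed, and the medians were 0.03 for GFPhigh over GFP- HSCs and -0.18 for Nras over wild-type HSCs. Zfand5, a proteasome-activating zinc finger protein, had 0.40 ± 0.15 for Nras over wild-type HSCs (limma adjusted p = 0.597), and -0.17 with the mean over its probe sets. Of 11 regulators, Maff, a small Maf protein that partners with CNC factors at antioxidant response elements, had the smallest p for GFPhigh over GFP- HSCs. It read 2700.7, 996.8 and 1671.1 in Nras GFPhigh HSCs, against 11.4, 93.3 and 642.6 in Nras GFP- HSCs, and 525.8, 3374.0 and 2596.5 in wild-type GFPhigh HSCs, against 1278.3, 401.3 and 749.2 in wild-type GFP- HSCs. The averaged log2 fold change was 2.71 ± 0.86 (limma adjusted p = 0.454), and 1.73 without the 4 arrays of low weight. Of 12 tested class I antigen processing genes, 0 passed. H2-K1, a class I heavy chain, had 0.40 ± 0.13 for GFPhigh over GFP- HSCs and 0.46 ± 0.13 for Nras over wild-type HSCs (limma adjusted p = 0.454 and 0.579), and with quantile normalization 0.08 in each. Among 4 ubiquitin supply genes and 11 genes of p97 and degradation from the endoplasmic reticulum, 0 passed as well. Ube4b, a ubiquitin chain elongation factor of the last list, had -1.38 ± 0.45 for GFPhigh over GFP- HSCs (limma adjusted p = 0.454), but -0.16 with the mean over its probe sets.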

How the data were processed

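Total RNA was extracted with Trizol from sorted cells and biotinylated cRNA was hybridised, per the labels' protocols. The deposited intensity values are MAS5 signals, per the submitters' processing notes, whose version is not given in the sources used here. Each of the 12 deposited columns has a trimmed mean of 500 over 45101 probe sets. The number of arrays, 3 per group, limits the precision. The labels call the replicates biological.

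Probe sets were named from GEO's platform annotation: 34945 had 1 symbol, 932 several and 9160 none, and 64 of all probe sets were controls. The 3 values at 0 were set to 0.1 before log2. Tests used limma 3.58.1 in R 4.3.3 (a mean per group, intensity trend, Benjamini-Hochberg over 12083 genes), and the script was tested on simulated data. Figures used matplotlib 3.10.9.

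Genes were named by rule: members past an adjusted p of 0.05, otherwise the 5 tested members of smallest p (3 in averaged comparisons), the catalytic subunits, Psmc4, Psmd14, Psme1, Psme2, Psmf1 and Psmg1, and up to 3 genes of each related list. The members and lists were chosen with earlier results of these data known. The pairing of replicate numbers was checked: correlations of same-numbered arrays ran from -0.04 to 0.14, and those of differently numbered arrays from -0.11 to 0.06. Not all same-numbered values were above 0.1 and the labels state no pairing, so the numbers were not taken as pairs. The check does not show that arrays of the same number are unrelated. Alternatives were quantile normalization, median centring, 2 pseudocounts, other filters on low signal, no intensity trend, array weights, the mean over probe sets, no shared probe sets, the groups compared alone, the replicate block, replicates 1 and 2 alone, no arrays of weight under 0.6 and each array left out. Applying them to each subunit class, and subtracting the median of all genes, was chosen after seeing the data. Promoters came from RefSeq's GRCm38.p6 table.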

Additional observations from a re-analysis of the deposited data

How the results depend on the processing

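Under up to 26 alternatives per comparison, 0 proteasome genes were called in all 7 comparisons (limma), and the lowest adjusted p of a member was 0.101. Of 358 checks of the counts and medians, 349 counted as kept, which says little. The counts were 0 under every alternative. A median counted as kept when it moved by less than the spread between arrays, 0.25 in log2. That margin is wider than each of the members' medians in the main fit, so a median that changed sign could count as kept. Median centring moved the members' median to -0.58 (GFPhigh over GFP- in Nras), 0.41 (Nras over wild-type in GFP-), -0.53 (difference between genotypes) and 0.15 (Nras over wild-type averaged). It moved the median of all tested genes too, to -0.41, 0.43, -0.53 and 0.13. Without the 4 arrays of low weight the medians were 0.15 (Nras over wild-type in GFP-) and -0.14 (difference between genotypes). Leaving out 1 array at a time gave -0.38 to 0.0713 for GFPhigh over GFP- in Nras, -0.36 to 0.15 for Nras over wild-type in GFP- and -0.21 to 0.21 for the difference between genotypes, the extremes -0.38, 0.15 and -0.21 being without Nras GFP- replicate 1. With the replicate number as a block, which the labels do not state as a pairing, 0 members were called and the medians stayed -0.21 (averaged GFPhigh over GFP-) and -0.14 (averaged Nras over wild-type), with a smallest adjusted p of 0.332.

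Single genes changed sign as follows, and the cause was not tested. Median centring gave Psma7 0.21 (Nras over wild-type in GFP-), Psma3 -0.17 and Psma7 -0.0488 (difference between genotypes), Psmb8 -0.13 (GFPhigh over GFP-) and Psmd14 0.22 (Nras over wild-type). Array weights gave Psmf1 -0.16 (GFPhigh over GFP-) and Psmd14 0.0027 (Nras over wild-type). Without the 4 arrays, Psmc2 was 0.0424 (GFPhigh), Psmb10 -0.0947 and Psmf1 -0.70 (GFPhigh over GFP-), and Psmb10 -0.0227, Psmb5 0.42, Psmb6 -0.49 and Psmd14 0.0647 (Nras over wild-type). With the mean over probe sets, Psma5 was 0.12 (Nras over wild-type in GFPhigh), Psma3 -0.61 (difference between genotypes) and Zfand5 -0.17 (Nras over wild-type). Without probe sets that match several transcripts, Psma3 was -1.68 (difference between genotypes), Psmf1 -0.86 (GFPhigh over GFP-), and Psmd11 0.0219 and Ube2d3 -0.26 (Nras over wild-type). With replicates 1 and 2, Psmb8 was -0.10 (GFPhigh over GFP-). Leaving out 1 array at a time gave, for GFPhigh over GFP-, Psmb8 -0.0468 to 0.18, Psmb9 -0.24 to 0.0456, Psmf1 -0.0233 to 0.77 and Psmg1 -0.64 to 0.14, and for Nras over wild-type, Psmb8 -0.0011 to 0.26, Psmc4 -0.0177 to 0.51 and Psmd14 -0.16 to 0.035. The other 1521 of 1556 single gene values kept their sign and their side of the threshold.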

Other observations

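Nfe2l1, which encodes the transcription factor NRF1 that drives proteasome genes when proteasome activity is short, was the 1 regulator of 11 whose 6 GFPhigh arrays all lay above its 6 GFP- arrays, as for 0.232% of all tested genes in that direction. That was noticed after its values were seen. It read 496.8, 646.6 and 583.9 in Nras GFPhigh HSCs, against 145.4, 376.3 and 369.1 in Nras GFP- HSCs, and 392.6, 482.9 and 445.1 in wild-type GFPhigh HSCs, against 338.1, 363.0 and 389.5 in wild-type GFP- HSCs. The margin was narrow, with a lowest GFPhigh value of 392.6 and a highest GFP- value of 389.5. The averaged log2 fold change of Nfe2l1 was 0.67 ± 0.44 (limma adjusted p = 0.692), so it did not pass the test. Nfe2l2 had -0.18 ± 0.36.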
